A study of Mus musculus with 16 samples.

Results

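Genes of Notch signalling were examined in the mouse brain, taken by their names in the expression table: the receptors Notch1, Notch2 and Notch3, the ligands Dll1, Jag1 and Dner, the protein O-fucosyltransferase Pofut1 and the Fringe enzymes Lfng, Mfng and Rfng. They were 10 of the 37583 genes counted. Notch receptors are held at the cell surface and are activated by ligands on neighbouring cells, after which proteases release the inner part of the receptor, which joins the DNA-binding protein Rbpj in the nucleus and switches on genes of the Hes and Hey families. Before it reaches the surface the receptor is glycosylated on its epidermal growth factor (EGF) repeats, where Pofut1 adds O-fucose and the Fringes extend that fucose with N-acetylglucosamine, which changes how well the receptor answers to Delta and Jagged ligands. In the brain the pathway is known for the upkeep of neural stem cells and astrocytes, and in the cerebellum for the exchange between Purkinje cells and Bergmann glia.

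Cortex and cerebellum came from 8 mice, 4 of them wild-type and 4 of the genotype Slc39a8 A391T (A393T) mutant, a missense change in a gene for a metal ion transporter, all of the strain C57BL/6J. This gave 16 polyA-selected libraries, 1 per region and mouse, of snap-frozen tissue. The study's methods give its wild-type mice as male and all of the same young adult age at harvest, and the labels used here give neither for the A391T mice. The titles name the libraries of wild-type mice CTX447, CTX448, CTX479 and CTX480 in cortex and CBLM447, CBLM448, CBLM479 and CBLM480 in cerebellum, and those of A391T mice CTX445, CTX446, CTX461 and CTX462 and CBLM445, CBLM446, CBLM461 and CBLM462, where the same number marks the same mouse. The 4 values of a group are given in this order. Whole tissue was used, in which fewer cells of a type and less RNA per cell cannot be told apart.

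The counts on genes ranged from 20813432 to 30497206 per library. Slc39a8 did not differ between genotypes in either region (log2 fold change 0.17, SE 0.18, adjusted p = 0.9997 in cortex and -0.03, SE 0.13, adjusted p = 0.93 in cerebellum), and a missense change need not alter the level of its RNA. The library names of the deposited expression table went against those of the count files for 8 of 16 columns: CTX447 and CTX448 there held the counts of CTX461 and CTX462, and the reverse, and likewise in cerebellum. Names were taken from the count files here, and where the other names changed a call, a direction or an overlap of ranges for the 10 genes, that is given beside the result. The regions held their markers, with 6 of 6 granule cell and 6 of 6 Purkinje cell markers higher in the cerebellum and 6 of 6 markers of cortical excitatory neurons higher in the cortex of each genotype. Choroid plexus RNA was uneven, with summed markers from 43.2 to 8100 TPM (a level scaled to gene length and to the library's total) over the 8 cerebellum libraries. CTX480 (wild type) and CBLM445 (A391T) stood apart by gene length. Genes over 8000 bases lay below their group mean there and genes under 2000 bases above it, with a gap between the medians of -0.32 and -0.25 on the log2 scale, while the other 14 libraries lay from -0.10 to 0.20.

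Sequences upstream of 4 genes are shown because 3 of them hold the core sequence bound by Rbpj and the other, Dner, had the largest regional difference of the 10 genes. The letters GTGGGAA were searched on both strands (as GTGGGAA or TTCCCAC) in the 250 bases before each start site in RefSeq (GRCm38.p6). Of 32851 such windows, 1779 (5.42%) held them. Of the 10 genes, 9 had an entry (all but Mfng), with 10 windows, and only the window of Lfng held the motif. Among 10 further receptors, ligands and target genes described below, 7 had an entry, and the windows of Hes5 and Hey2 held it. The target genes Hes1, Hey1 and Heyl had no entry and were not searched. A match is a description of letters and not a binding site. The sequences run 5' to 3' on the gene's strand, with the motif in capitals. They lie at chr5:140607091-140607340 (plus strand) for Lfng, chr4:154960673-154960922 (plus) for Hes5, chr10:30842784-30843033 (minus) for Hey2 and chr1:84696222-84696471 (minus) for Dner.
Lfng: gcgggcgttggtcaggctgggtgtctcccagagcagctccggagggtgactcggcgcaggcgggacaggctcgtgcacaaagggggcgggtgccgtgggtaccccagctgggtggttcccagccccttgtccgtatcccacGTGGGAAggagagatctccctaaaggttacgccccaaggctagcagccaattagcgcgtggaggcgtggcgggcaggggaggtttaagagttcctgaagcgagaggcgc
Hes5: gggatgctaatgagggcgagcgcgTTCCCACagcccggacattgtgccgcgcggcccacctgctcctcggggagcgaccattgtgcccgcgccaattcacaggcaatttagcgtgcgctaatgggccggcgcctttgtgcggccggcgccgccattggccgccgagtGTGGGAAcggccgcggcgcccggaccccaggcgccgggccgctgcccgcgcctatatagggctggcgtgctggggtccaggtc
Hey2: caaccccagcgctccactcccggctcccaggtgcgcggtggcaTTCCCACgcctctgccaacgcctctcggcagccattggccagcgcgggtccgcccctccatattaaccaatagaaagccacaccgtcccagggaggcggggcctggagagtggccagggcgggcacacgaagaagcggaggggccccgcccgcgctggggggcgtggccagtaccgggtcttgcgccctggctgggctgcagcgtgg
Dner: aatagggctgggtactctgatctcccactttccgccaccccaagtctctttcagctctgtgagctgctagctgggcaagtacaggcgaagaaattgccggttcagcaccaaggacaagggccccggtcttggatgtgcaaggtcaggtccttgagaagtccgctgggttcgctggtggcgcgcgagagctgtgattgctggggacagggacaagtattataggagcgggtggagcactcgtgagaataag
The motif began 109 bases before the start of Lfng, 226 and 83 bases before that of Hes5, on opposite strands, and 207 bases before that of Hey2.

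All 10 genes were measured in every library, with the lowest count at 56 (Mfng, A391T cerebellum) and the highest at 20484 (Dner, A391T cerebellum). Levels in TPM were computed from the counts and the gene length of the deposited table, so that genes can be compared. In every group the order began with Dner, Rfng, Lfng and Pofut1, whose ranges did not overlap. In wild-type cortex the means were 152 ± 7.83 (SD, n = 4) for Dner, 75.6 ± 2.22 for Rfng, 46.4 ± 8.80 for Lfng and 16.5 ± 1.25 for Pofut1. The receptors followed, with Notch3 at 10.3 ± 2.03, Notch2 at 8.84 ± 1.53 and Notch1 at 6.17 ± 1.82, and the ranges of neighbours overlapped. Mfng (5.63 ± 0.40), Jag1 (4.39 ± 0.29) and Dll1 (4.28 ± 0.36) came last. Jag1 and Dll1 overlapped in every group. Mfng ranked 8 of 10 in both cortex groups and 10 of 10 in both cerebellum groups. The spread between the 4 mice of wild-type cortex, as SD over mean, was smallest for Rfng (2.93%) and largest for Notch1 (29.4%). The order of Notch1 and Mfng depended on the length used. The table gives 17230 bases, while the longest annotated transcript has 9488, and with the longest transcript of each gene the mean of Notch1 in wild-type cortex was 11.2 TPM, above Notch2 (8.81) and Notch3 (10.3). Mfng was then at 8.52 TPM in wild-type cortex, and it was no longer last in cerebellum, at 5.86 against 4.59 for Jag1 in wild-type and 4.83 against 4.68 in A391T mice.

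**Figure D1:**
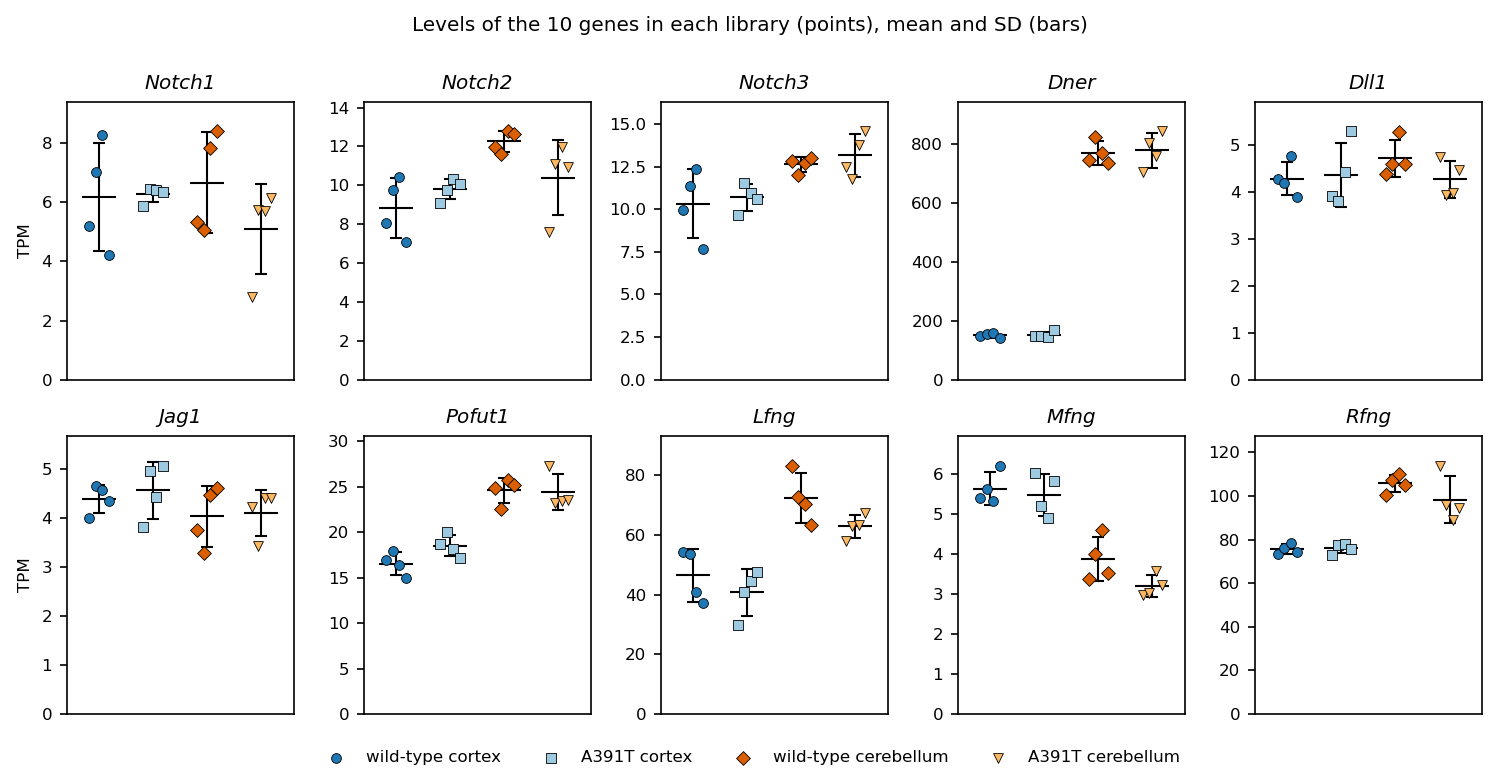
Level of each of the 10 genes in TPM (vertical axes from 0) in the 16 libraries, with 1 point per mouse and bars for the mean and SD of each group of 4. Dner lies between 706 and 844 TPM in the cerebellum and between 141 and 168 in the cortex, and 1 A391T cerebellum library is low for Notch1, at 2.81.

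The first question was whether the genes differ between cortex and cerebellum. In wild-type mice 5 of the 10 were higher in cerebellum (Dner, Lfng, Pofut1, Rfng and Notch2) and 2 were lower (Mfng and Jag1) at an adjusted p under 0.05 by edgeR's quasi-likelihood test. Of all 16040 genes tested, 67.8% passed that threshold (34.7% higher, 33.1% lower), so that 7 of 10 is near the background. A fold change of at least 2 as well was reached by 1 of the 10, Dner, against 24.6% of all genes. The TPM ranges of the regions did not overlap for 6 of the 10, against 65.9% of all genes. In A391T mice 5 of the 10 passed (Dner, Lfng, Pofut1 and Rfng higher, Mfng lower), against 62.7% of 16005 genes (31.5% higher, 31.2% lower), and again only Dner passed both criteria, against 24.7%. There too the ranges did not overlap for 6 of the 10, against 61.8%. The median log2 fold change of the 10 genes was 0.23 in wild-type and 0.08 in A391T mice, against 0.02 and 0.03 over all genes. Scaled by library totals alone, the median of all genes was higher in cerebellum by 0.14 (wild type) and 0.16 (A391T) on the log2 scale. By the expression table's names the test was passed by 5 of the 10 in wild-type mice (4 higher, 1 lower, against 66.4% of all genes) and by 7 in A391T mice (4 higher, 3 lower, against 64.2%), and the ranges did not overlap for 7 and 6, against 64.8% and 62.7% of all genes. Without CTX480 the call was made for 6 of the 10 in wild-type mice (69.2% of all genes), and without CBLM445 for 8 of the 10 in A391T mice (72.7% of all genes). With only the mice of matching names, 2 per genotype, the calls of Notch2, Mfng and Jag1 in wild-type and of Pofut1 and Rfng in A391T mice were lost, and 47.4% and 40.1% of all genes passed. Log2 fold changes below are from the edgeR fit, with composition factors.

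Notch1, the receptor most studied in neural progenitors, stood in wild-type cortex at 5.19, 7.01, 8.26 and 4.21 TPM and in wild-type cerebellum at 5.31, 5.07, 7.82 and 8.38. In A391T cortex it was at 5.88, 6.45, 6.39 and 6.35 TPM and in A391T cerebellum at 2.81, 5.72, 5.70 and 6.12. The wild-type ranges overlapped widely, and in A391T mice CBLM445 lay below every other library. The log2 fold change, cerebellum over cortex, was -0.05 (SE 0.22, adjusted p = 0.87) in wild-type and -0.42 (SE 0.18, adjusted p = 0.068) in A391T mice. The interval of the first reached from -0.55 to 0.46, and a difference within it was not detectable at this spread. With the names of the expression table the wild-type value was 0.0029. In A391T mice the call turned on the analysis: with mouse as a replicate block Notch1 passed at -0.46 (adjusted p = 0.037), and without CBLM445 it passed at -0.23 (adjusted p = 0.0023), and without CBLM462 at -0.51 (adjusted p = 0.048). Under the names of the expression table it was -0.49 (adjusted p = 0.030), and DESeq2 called it at -0.43 (adjusted p = 0.042). The part that the length-related gap of that library had in the result was not tested. Of the exon bases of Notch1, 9.76% overlap genes on the other strand, and reads were counted without regard to strand.

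Notch2, a receptor expressed in glia and vessels among other cells, was higher in cerebellum in wild-type mice. It stood at 8.09, 9.78, 10.4 and 7.07 TPM in cortex and at 12.0, 11.6, 12.8 and 12.7 in cerebellum. Every wild-type cerebellum library lay above every wild-type cortex library. On the log2 scale the fold change was 0.32 (SE 0.10, adjusted p = 0.014). Under the names of the expression table it was 0.20 (adjusted p = 0.12), and the call was lost. In A391T mice the cortex held 9.11, 9.75, 10.3 and 10.1 TPM and the cerebellum 7.59, 11.1, 12.0 and 11.0, and the log2 fold change was -0.03 (SE 0.11, adjusted p = 0.84), or 0.093 with those other names. CBLM445 alone lay below every A391T cortex library, while the other 3 cerebellum libraries lay above them all. In TPM, with no composition factors, the cerebellum exceeded the cortex in 7 of the 8 mice.

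Notch3, known from the smooth muscle and pericytes of vessels, held 9.93, 11.4, 12.3 and 7.65 TPM in wild-type cortex and 12.8, 12.0, 12.7 and 13.0 in wild-type cerebellum. In A391T mice it held 9.68, 11.5, 11.0 and 10.6 in cortex and 12.5, 11.8, 13.8 and 14.6 in cerebellum. In TPM, which carries no composition factors, the cerebellum was above the cortex in 8 of 8 mice, with ratios from 1.02 to 1.70. By the names used here the TPM ranges of the regions overlapped in wild-type and not in A391T mice. By those of the expression table they overlapped in neither, with wild-type cortex at 12.3 at most and wild-type cerebellum at 12.7 at least. The log2 fold change was 0.14 (SE 0.12, adjusted p = 0.30) in wild-type and 0.20 (SE 0.09, adjusted p = 0.073) in A391T mice, and neither passed. Under the other names these were 0.23 (adjusted p = 0.10) and 0.11 (adjusted p = 0.29). Without CTX480 the first was 0.03, and the second passed without CBLM445 (0.19, adjusted p = 0.040) or CBLM446 (0.26, adjusted p = 0.026). With library totals in place of composition factors it was 0.27 in wild-type and 0.33 in A391T mice, and passed in both. Summed markers of mural cells, the cells that Notch3 is known from, ranged from 171 to 197 TPM in wild-type cerebellum and from 181 to 217 in wild-type cortex, and 3 of 7 passed the test as lower in cerebellum with none as higher. The TPM ranges did not overlap for 1 that did not pass, Kcnj8, which was higher in cerebellum. The part of mural cells in the values of Notch3 was not tested.

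Dner, a transmembrane protein with EGF repeats that is abundant in Purkinje cells and can act on Notch in Bergmann glia, had the largest difference of the 10. In wild-type cortex it held 149, 156, 159 and 141 TPM and in wild-type cerebellum 747, 827, 769 and 736. In A391T cortex it held 150, 149, 144 and 168 and in A391T cerebellum 706, 806, 762 and 844. No cerebellum library came near a cortex library. On the log2 scale the fold change was 2.19 (SE 0.07, adjusted p = 1.1e-10) in wild-type and 2.25 (SE 0.07, adjusted p = 5.3e-09) in A391T mice, 4.58-fold and 4.75-fold. Within a mouse the ratio of TPM ran from 4.72 to 5.41 over 8 mice. It was the only one of the 10 to pass a test against a 2-fold change, in both genotypes. The call held in each of the 8 fits per genotype that left out a library, with log2 fold changes from 2.16 to 2.23 and from 2.21 to 2.30. The summed markers of Purkinje cells lay between 5141 and 5617 TPM in wild-type cerebellum and between 429 and 565 in wild-type cortex, and 6 of 6 were higher in cerebellum. Their part in the result was not tested.

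The ligands Dll1 and Jag1 were low. Jag1 was lower in wild-type cerebellum, at the threshold of the test, and Dll1 did not pass. Dll1, a Delta ligand, held 4.27, 4.20, 4.76 and 3.90 TPM in wild-type cortex and 4.38, 4.59, 5.28 and 4.60 in wild-type cerebellum, on 107 to 160 counts. In A391T mice it ranged from 3.80 to 5.29 in cortex and from 3.92 to 4.74 in cerebellum. Its ranges overlapped in both genotypes, with log2 fold changes of -0.01 (95% interval -0.25 to 0.22) in wild-type and -0.13 (-0.46 to 0.20) in A391T mice. With the other library names these were -0.16 and 0.026. Genes on the other strand share 20.5% of its exon bases. Jag1, a Jagged ligand, held 4.00, 4.64, 4.57 and 4.35 TPM in wild-type cortex and 3.76, 3.29, 4.47 and 4.60 in wild-type cerebellum. The ranges overlapped. The log2 fold change of -0.28 (SE 0.11, adjusted p = 0.0487) in wild-type mice lay at the threshold, and with mouse as a replicate block it was -0.29 (adjusted p = 0.058). Scaled by library totals it was -0.16 (adjusted p = 0.25). It was lost in 6 of the 8 fits that left out a wild-type library, with values from -0.34 to -0.19. Under the names of the expression table it was -0.20 (adjusted p = 0.088). In A391T mice Jag1 ranged from 3.81 to 5.07 TPM in cortex and from 3.42 to 4.41 in cerebellum, and the log2 fold change was -0.25 (SE 0.13, adjusted p = 0.12). There the names of the expression table gave -0.34 (adjusted p = 0.047), and Jag1 passed in 1 of the 8 fits that left out a library, that without CBLM445 (-0.30, adjusted p = 0.038), with values from -0.34 to -0.16. The TPM ratio of cerebellum to cortex was above 1 in 2 of 8 mice.

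Pofut1, the enzyme that fucosylates the EGF repeats, was higher in cerebellum. Wild-type cortex held 17.0, 17.9, 16.4 and 14.9 TPM and wild-type cerebellum 24.9, 22.5, 25.7 and 25.2. A391T cortex held 18.6, 20.0, 18.2 and 17.2 and A391T cerebellum 27.3, 23.2, 23.4 and 23.6. The regions did not overlap in either genotype, and CBLM445 was highest in A391T cerebellum. The fold change on the log2 scale was 0.42 (SE 0.07, adjusted p = 2.2e-04), or 1.34-fold, in wild-type and 0.30 (SE 0.10, adjusted p = 0.022) in A391T mice. The A391T call was lost in 3 of the 8 fits that left out a library, those without CTX445, CTX461 or CTX462, with values from 0.27 to 0.30. Without CBLM445 it was 0.20 and passed.

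Lfng, the Fringe with the most studied role in development, was also higher in cerebellum. Wild-type cortex held 54.2, 53.6, 40.8 and 37.1 TPM and wild-type cerebellum 83.3, 72.8, 70.5 and 63.2. A391T cortex held 29.9, 40.9, 44.7 and 47.7 and A391T cerebellum 57.9, 63.1, 63.3 and 67.3. The lowest cerebellum library, at 57.9, lay above the highest cortex library, at 54.2. The log2 fold change was 0.49 (SE 0.13, adjusted p = 0.0073), or 1.40-fold, in wild-type and 0.52 (SE 0.13, adjusted p = 0.0055), or 1.43-fold, in A391T mice. The call held in each fit that left out a library, from 0.40 to 0.58 and from 0.39 to 0.61. Of the 10 windows, which covered every gene of the 10 but Mfng, only that of Lfng held GTGGGAA, against 5.42% of all windows searched.

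Mfng, the least abundant Fringe, went the other way. Wild-type cortex held 5.38, 5.61, 5.32 and 6.20 TPM and wild-type cerebellum 3.36, 3.98, 4.60 and 3.53. A391T cortex held 6.02, 5.18, 4.88 and 5.80 and A391T cerebellum 2.96, 3.02, 3.58 and 3.21. In both genotypes every cerebellum library lay below every cortex library, and all 8 mice had less in the cerebellum. The fold change on the log2 scale was -0.69 (SE 0.13, adjusted p = 7.4e-04) in wild-type and -0.88 (SE 0.13, adjusted p = 1.5e-04) in A391T mice, 1.61-fold and 1.84-fold lower. Its counts were small, from 56 to 132. Among only those wild-type mice whose names matched between both sources (CTX479, CTX480, CBLM479 and CBLM480) it was -0.67 (adjusted p = 0.057). Summed markers of microglia, an immune cell, moved the same way, from 440 to 488 TPM in wild-type cortex against 151 to 162 in wild-type cerebellum, with 6 of 6 lower. Those of cortical excitatory neurons (2327 to 2917 against 927 to 1000) and of striatum (466 to 634 against 251 to 287) were lower too. Those of granule cells, of Purkinje cells and of astrocytes and Bergmann glia were higher. The part of these cells in the result was not tested.

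Rfng, the most abundant Fringe, was higher in cerebellum. Wild-type cortex held 73.6, 76.2, 78.4 and 74.1 TPM and wild-type cerebellum 101, 107, 110 and 105. A391T cortex held 73.0, 77.8, 78.0 and 75.5 and A391T cerebellum 114, 96.1, 88.8 and 94.5. The regions did not overlap, and the 8 cortex libraries lay within a narrow band. The log2 fold change was 0.33 (SE 0.05, adjusted p = 1.5e-04), or 1.26-fold, in wild-type and 0.28 (SE 0.10, adjusted p = 0.040) in A391T mice. With mouse as a replicate block the A391T value was 0.26 (adjusted p = 0.074), and the 4 fits that each left out a cortex library lost the call. Without CBLM445 it was 0.16 and passed.

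**Figure D2:**
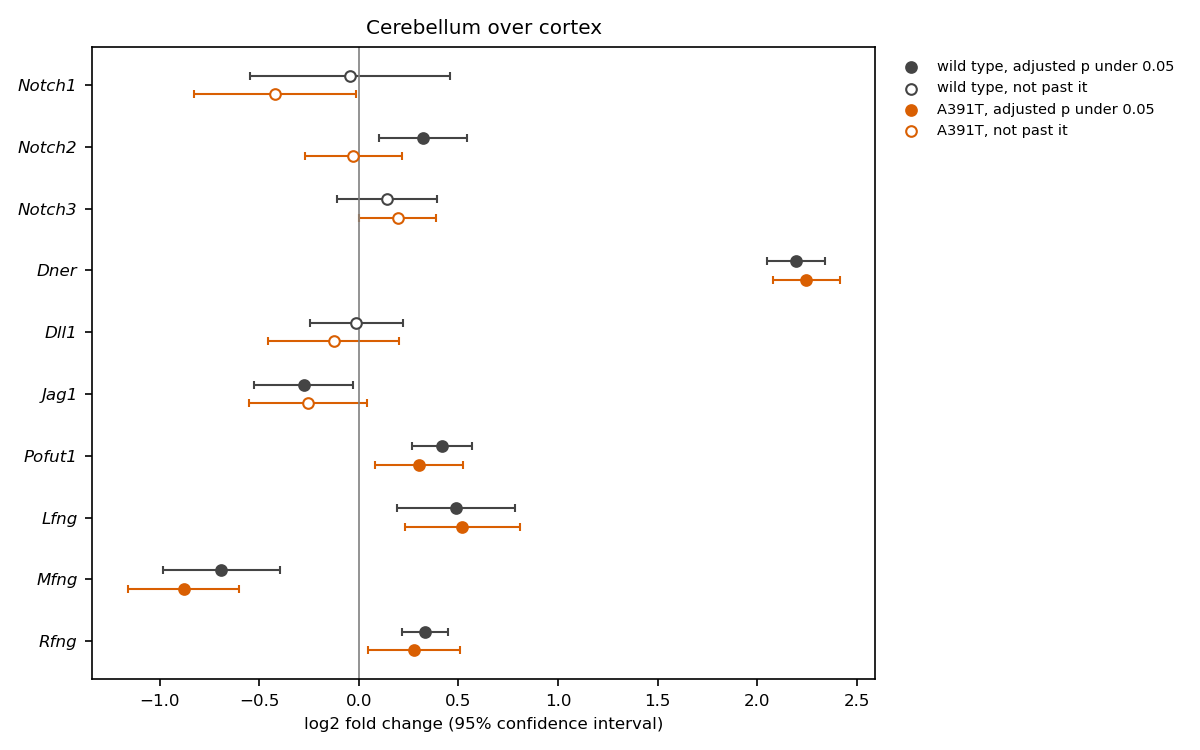
Log2 fold change of cerebellum over cortex (horizontal axis) for the 10 genes in wild-type and A391T mice, 4 mice each, with 95% confidence intervals. Filled points passed an adjusted p of 0.05. Dner lies at 2.19 and 2.25, and the other 9 lie between -0.88 and 0.52.

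The make-up of each class was described by the share of each gene in the summed TPM of its class, within a library and with no test. Among the Fringes, Rfng made up 59.4% ± 4.24 (SD, n = 4) in wild-type cortex and 58.2% ± 3.18 in wild-type cerebellum, and Lfng 36.2% ± 4.67 and 39.7% ± 3.37. These ranges overlapped between regions. The Fringe shares rest on the gene lengths used. As shares of counts, with no division by length, Rfng made up from 64.0% to 70.9% in wild-type cortex and Lfng from 24.1% to 32.1%. Mfng made up 4.43% ± 0.57 in wild-type cortex and 2.12% ± 0.29 in wild-type cerebellum, and 4.51% ± 0.73 and 1.95% ± 0.26 in A391T mice. Its share in all 8 cortex libraries, at least 3.83%, exceeded that in all 8 cerebellum libraries, at most 2.49%. The summed Fringe level was 128 ± 8.30 TPM in wild-type cortex and 182 ± 6.92 in wild-type cerebellum, without overlap.

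The 4 Notch receptors were closer to even, with Notch3 at 33.0% ± 0.90, Notch2 at 28.4% ± 0.78, Notch1 at 19.5% ± 2.40 and Notch4 at 19.1% ± 2.80 in wild-type cortex. These shares rest on the length of Notch1 in the table. As shares of counts, with no division by length, Notch1 came first there with 31.8%, before Notch2 (28.2%), Notch3 (25.1%) and Notch4 (14.9%). In wild-type cerebellum Notch2 made up 33.4% ± 0.54 of receptor TPM, above all wild-type cortex shares (27.4% to 29.3%), while in A391T mice its shares overlapped between regions. By the names of the expression table the wild-type shares overlapped too, from 29.9% to 33.1% in cerebellum and from 28.2% to 31.3% in cortex. CBLM445 had the lowest Notch1 share of the 16 libraries, 9.25%, and the highest Notch4 share, 24.7%. The canonical ligands were dominated by Jag2, which is not one of the 10 genes. It made up 75.1% ± 3.52 in wild-type cortex and 62.0% ± 2.47 in wild-type cerebellum. Jag1 made up 7.41% ± 0.67 and 10.5% ± 0.79, and Dll1 7.21% ± 0.47 and 12.3% ± 0.89. Summed ligand TPM was 59.6 ± 6.45 in wild-type cortex and 38.3 ± 3.16 in wild-type cerebellum, so that the shares of Jag1 and Dll1 were larger in cerebellum beside a smaller sum.

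**Figure D3:**
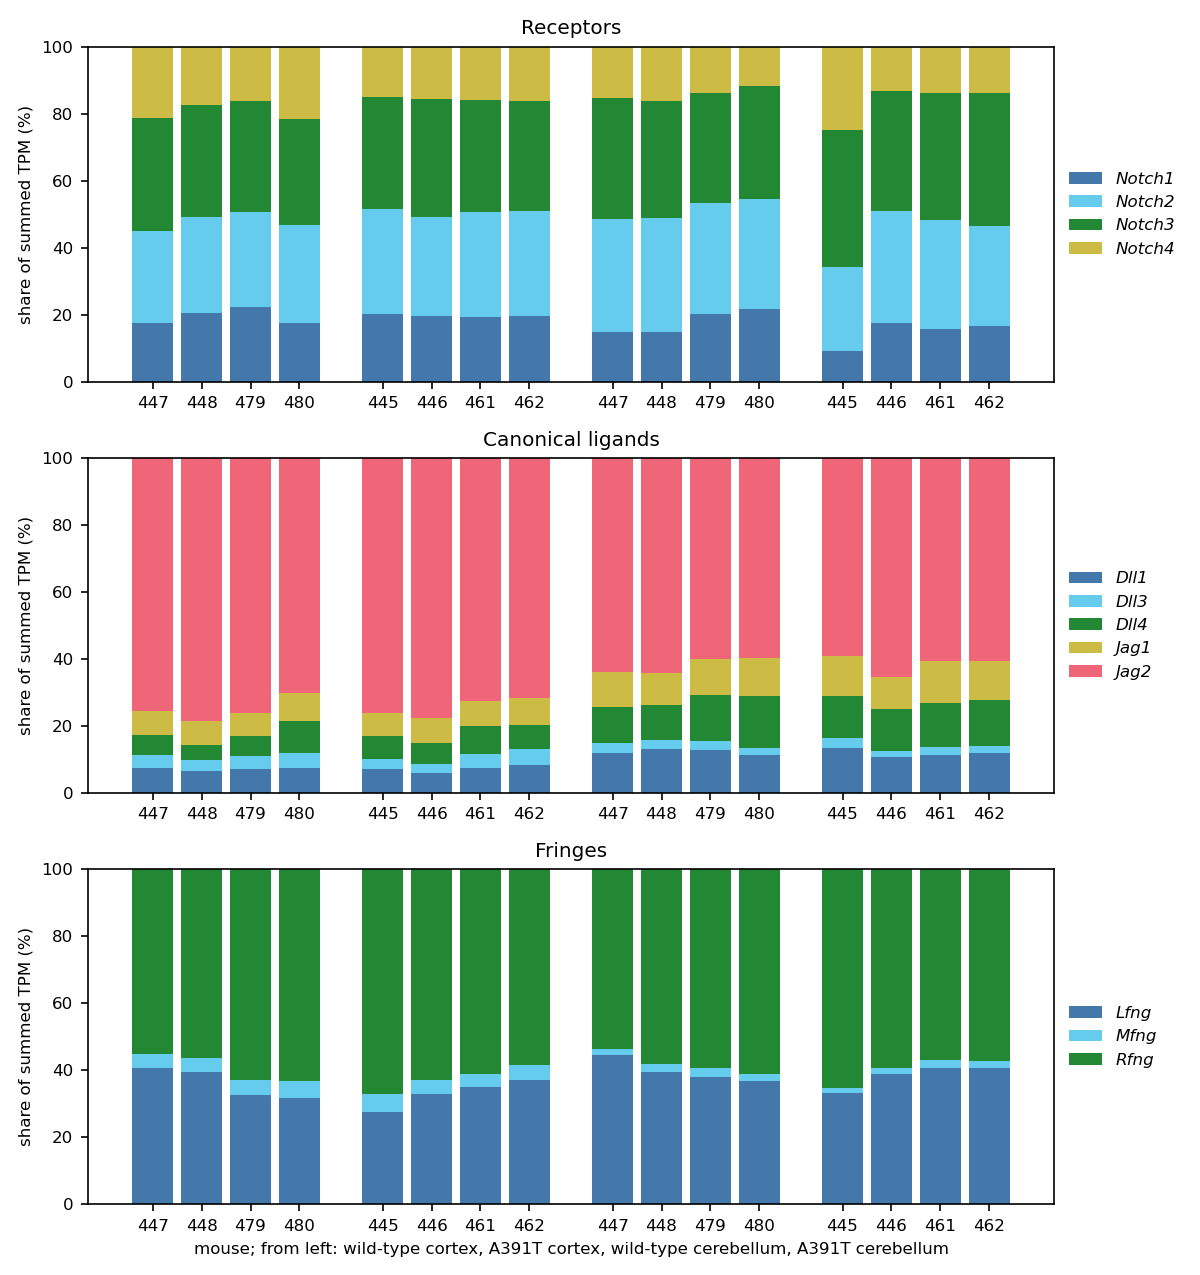
Share of each gene (% of the summed TPM of its class, vertical axis) in each of the 16 libraries, named by mouse number and ordered by group, for receptors, canonical ligands and Fringes. Jag2 makes up most ligand TPM everywhere, between 59.2% and 78.5%, and CBLM445 has the lowest Notch1 share, 9.25%.

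The remaining genes of the pathway were taken from 7 lists. Of the 4 other canonical receptors and ligands, 3 were lower in wild-type cerebellum, where 33.1% of all genes were. Jag2 held 43.0, 50.4, 49.8 and 36.4 TPM in wild-type cortex and 23.3, 22.4, 24.6 and 24.5 in wild-type cerebellum, without overlap, a log2 fold change of -1.07 (SE 0.09, adjusted p = 8.6e-07). Dll3, an unusual Delta ligand that inhibits Notch in its own cell, was at -1.35 (SE 0.17) on 38 to 45 counts in wild-type cortex and 15 to 20 in wild-type cerebellum, and the endothelial receptor Notch4 at -0.34 (SE 0.10, adjusted p = 0.010). Dll4, an endothelial ligand, was at 0.22 (SE 0.21, adjusted p = 0.35). In A391T mice Jag2 (-1.13) and Dll3 (-1.49) passed again and the other pair did not, where 31.2% of all genes were lower.

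Target genes were mostly lower in cerebellum. Hes5, an astrocyte and progenitor target, held 26.2, 26.3, 18.5 and 19.0 TPM in wild-type cortex and 5.11, 3.70, 4.20 and 3.08 in wild-type cerebellum. The ranges lay far apart, with a log2 fold change of -2.63 (SE 0.19, adjusted p = 1.8e-07), 6.20-fold lower. Nrarp, which limits Notch output, was 5.25-fold lower (-2.39, SE 0.11), Hes1 1.71-fold lower (-0.77, SE 0.12) and Hey1 1.37-fold lower (-0.45, SE 0.07). Hey2 was 1.32-fold higher (0.40, SE 0.12, adjusted p = 0.011), and Heyl was at -0.60 (SE 0.26, adjusted p = 0.057), which passed under the names of the expression table (-0.46, adjusted p = 0.034). In all, 4 of 6 were lower and 1 higher, against 33.1% and 34.7% of all genes. In A391T mice 4 of 6 were lower (Hes5 at -2.95, Nrarp at -2.70, Hes1 at -1.20 and Heyl at -0.60), while Hey1 (-0.20, adjusted p = 0.22) and Hey2 (0.32, adjusted p = 0.12) did not pass. Summed markers of astrocytes and Bergmann glia ranged from 1519 to 1598 TPM in wild-type cerebellum and from 1075 to 1193 in wild-type cortex. Of the 7 markers, 5 were higher in cerebellum and 1 lower. The TPM of Slc1a2, a marker of that list, was lower in cerebellum without overlap in both genotypes. The part of these cells in the result was not tested.

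The counts of the 5 other lists are read against the 34.7% of all genes that were higher and the 33.1% that were lower in wild-type mice. Of the 5 non-canonical ligands, Cntn6, a neural cell adhesion molecule, was higher in wild-type cerebellum (1.99, SE 0.10), and Dlk2 (-4.97, SE 0.13) and Nov (-3.60, SE 0.23) were lower. Of the 10 other enzymes of EGF-repeat O-glycans and fucose supply, 9 could be tested, and Gxylt1 (0.58, SE 0.09), Pofut2 (0.58, SE 0.06) and 1 more were higher, while Eogt, which adds N-acetylglucosamine to EGF repeats, was lower (-0.50, SE 0.06). Of the 10 genes of receptor processing, 5 were higher, led by the convertase Furin (0.83, SE 0.08) and the gamma-secretase subunit Psen2 (0.74, SE 0.07), and 1 was lower, Aph1c (-0.33, SE 0.11). The 6 of 10 called is near the 67.8% of all genes. The median of that list was 0.37, against 0.02 over all genes.

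Among the 13 ubiquitin ligases and endocytic regulators, 2 were higher (Itch, 0.47, SE 0.07, and Dtx1, 0.46, SE 0.09) and 5 lower, led by Neurl1b, a ligase for Notch ligands (-6.04, SE 0.21), and Dtx4 (-1.18, SE 0.11). The 7 of 13 called in wild-type mice stand beside 67.8% of all genes, and the difference was not tested. In A391T mice 2 of the 13 were higher and 7 lower, where 62.7% of all genes passed. Neurl1b held from 42.2 to 59.1 TPM in wild-type cortex and from 0.64 to 1.30 in wild-type cerebellum. Of the 11 genes of the nuclear complex, 6 were higher, led by the acetyltransferase Kat2b (2.30, SE 0.06) and the co-activator Maml2 (1.48, SE 0.07), and 1 was lower, Fbxw7 (-1.07, SE 0.08), which marks the active receptor for breakdown. The 7 of 11 called is near the 67.8% of all genes. The median of this list was 0.58 in wild-type mice, against 0.02 over all genes. In A391T mice it was 0.29, against 0.03. There 4 of the 11 were higher and 2 lower, against 31.5% and 31.2% of all genes. With the other library names, 1 more gene was higher in wild-type mice among those of receptor processing (6 of 10), and 1 more was lower among the O-glycan enzymes (2 of 10 tested), the ubiquitin ligases (6 of 13) and the nuclear complex (2 of 11). The wild-type median of the non-canonical ligands went from -0.43 to -1.31 with those names, and those of the other lists moved by less. In A391T mice the direction of each of the 16 genes named from these 5 lists was the same, and each passed, where 62.7% of all genes did. They had been named for the largest changes among called genes in wild-type mice, so this says little about the lists.

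**Figure D4:**
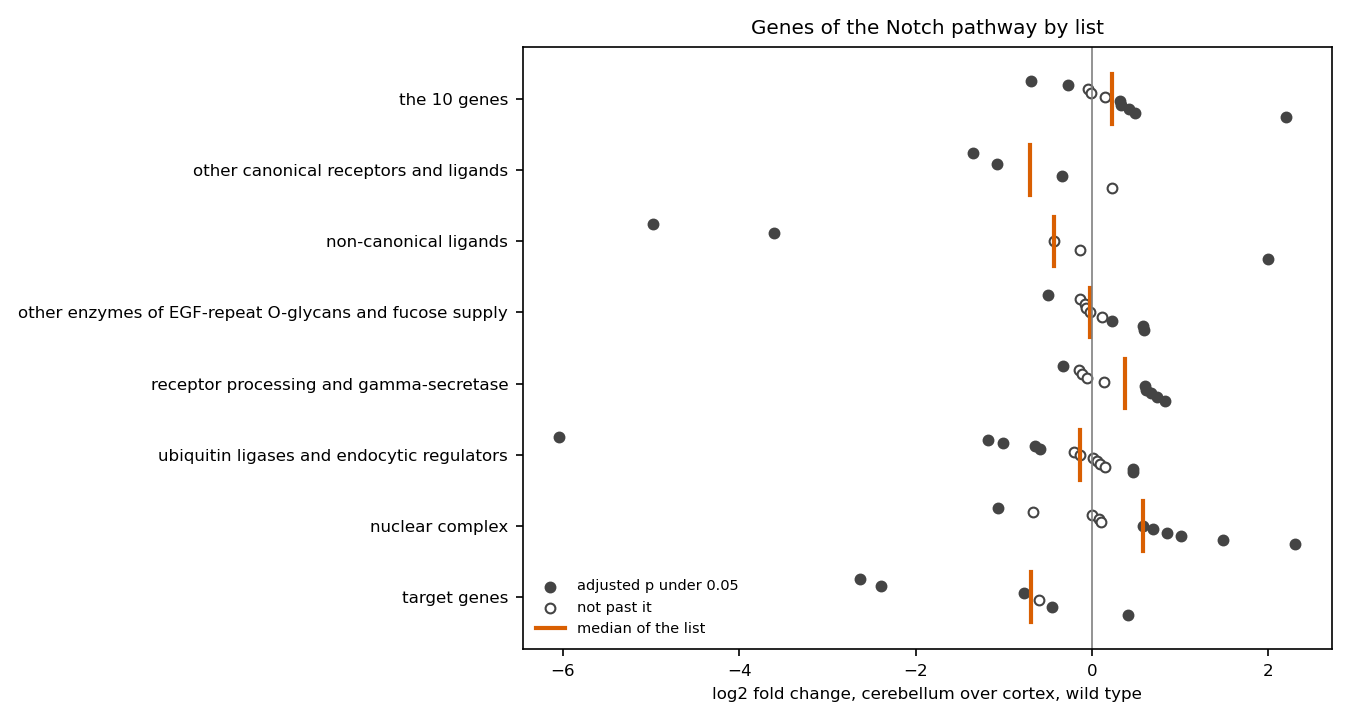
Log2 fold change of cerebellum over cortex in wild-type mice (horizontal axis, 4 mice) for each tested gene of 8 lists (rows), with the median of each list as a bar. Filled points passed an adjusted p of 0.05. Neurl1b lies at -6.04, and the medians run from -0.71 for the other canonical receptors and ligands to 0.58 for the nuclear complex.

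The second question was whether the A391T genotype changed the genes within a region. By edgeR none of the 10 passed in cortex, where 0.0126% of 15815 genes did, or in cerebellum, where 0 of 15668 did. None passed both criteria, against 0.00632% of all genes in cortex. At an unadjusted p under 0.05 the counts over all genes were 740 and 1326 by edgeR, none of them among the 10, and DESeq2 called 14 and 37 genes at an adjusted p under 0.05 and none of the 10. By the names used here the ranges of the genotypes overlapped for all 10 in both regions, against 3.24% of genes without overlap in cortex and 7.83% in cerebellum. By those of the expression table Jag1 did not overlap in cerebellum, from 4.40 to 4.60 TPM in wild-type and from 3.29 to 4.21 in A391T mice, where 6.90% of all genes did not. The 2 largest differences in cortex were those of Lfng, at -0.21 (95% interval -0.56 to 0.14), and Pofut1, at 0.14 (-0.01 to 0.30). Without CTX445 the value of Lfng was -0.09 and without CTX447 -0.12, and over all fits that left out a library it ran from -0.30 to -0.09. Pofut1 was at 0.28 with only the mice of matching names. In cerebellum they were those of Notch1, at -0.34 (-0.85 to 0.17), and Mfng, at -0.22 (-0.54 to 0.10). The intervals of Dner ran from -0.15 to 0.13 in cortex and from -0.08 to 0.22 in cerebellum. Without CBLM445 the cerebellum value of Notch1 was -0.17, without CBLM480 -0.22, with only the mice of matching names -0.83, and under the names of the expression table -0.52. For Mfng it was -0.15 without CBLM479 and -0.10 under the names of the expression table. Those names changed the sign of 5 of 10 values in each region. In cortex these were Lfng (to 0.06), Notch2 (0.13 to -0.05), Dll1 (0.01 to -0.19), Jag1 (0.04 to -0.09) and Notch1 (0.01 to -0.04). In cerebellum they were Lfng (-0.15 to 0.13), Rfng (-0.04 to 0.14), Jag1 (0.09 to -0.21), Notch3 (0.11 to -0.08) and Dll1 (-0.08 to 0.02).

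The region difference was then compared between genotypes by the interaction term over all 16 libraries. None of the 10 passed the interaction term in edgeR, and of 16589 genes 0 did (801 at an unadjusted p under 0.05, and 1 by DESeq2). Notch1 had the largest value of the 10, -0.36 (SE 0.30, adjusted p = 0.78), and Notch2 the next, -0.34 (SE 0.15, unadjusted p = 0.043, adjusted p = 0.77). Without CBLM445 these were -0.18 and -0.24, and without CTX480 or CBLM480 that of Notch1 was -0.22 or -0.24. Under the names of the expression table they were -0.48 and -0.10, and the term changed sign for 4 of the 10 (Dll1, Jag1, Notch3 and Rfng). For Dner the term was 0.07 with an interval from -0.13 to 0.27.

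**Figure D5:**
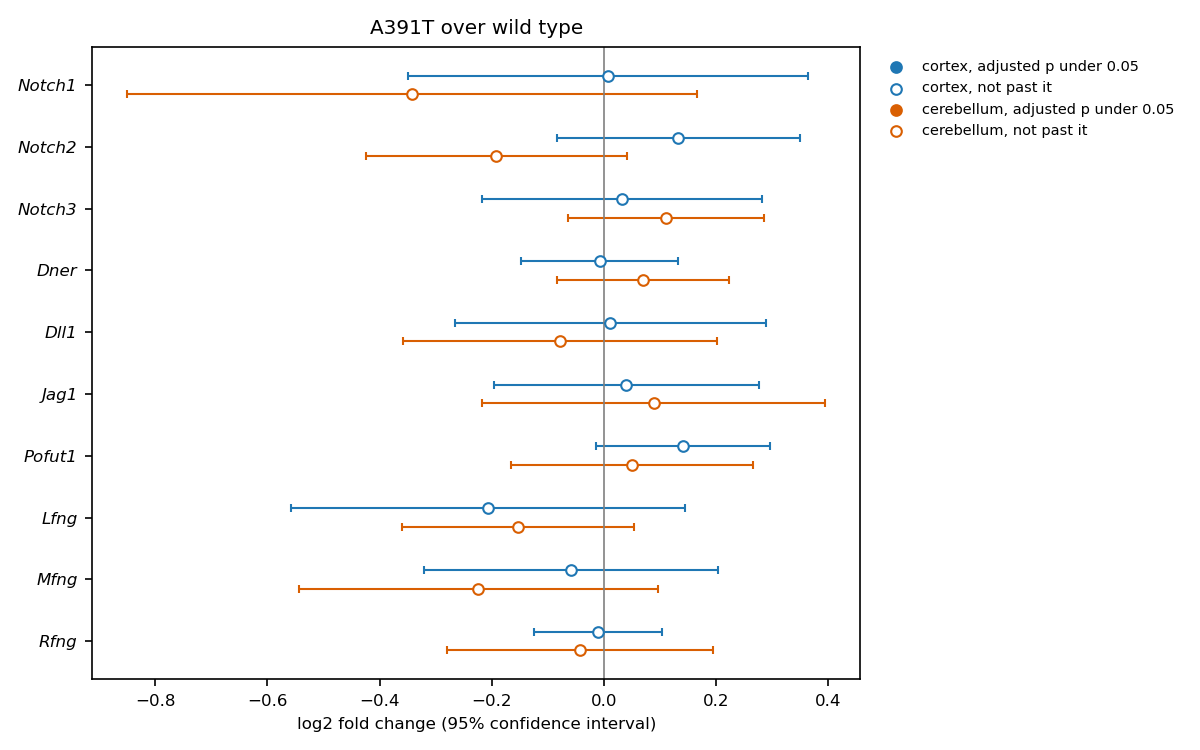
Log2 fold change of A391T over wild type (horizontal axis) for the 10 genes in cortex and cerebellum, 4 mice per genotype, with 95% confidence intervals. No point is filled, since none passed an adjusted p of 0.05, and the values run from -0.34 for Notch1 in cerebellum to 0.14 for Pofut1 in cortex.

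The genes whose levels moved most like those of each of the 10 were found by Pearson's r of the deviations of log2 CPM from the group mean, over 16 libraries that share their depth and quality with all genes, among 16588 genes. Notch1 moved most like Cacna1e (r = 0.97), Cacna1c (0.97) and Csmd2 (0.97), which have lengths of 12649, 10639 and 17103 bases. Notch1 has 17230 by the same source and 9488 in its longest transcript. Notch2 moved with Timp3 (0.96), Pgap1 (0.93) and Ntrk2 (0.93), and Notch3 with Micall1 (0.94), Myh9 (0.92) and Fgd1 (0.91). Rfng moved with Pigs (0.97), Limk2 (0.96) and Pex6 (0.95), and Pofut1 with Cdk19 (0.94), Otud4 (0.93) and Rspry1 (0.92). The closest to Lfng were Tmem119 (0.92), a marker of microglia, 1810032O08Rik (0.86) and Glt25d1 (0.85). The closest to Dll1 were Col1a1 (0.93), Rfx3 (0.87) and Cacnb2 (0.87), and to Jag1 Gp5 (0.88), Col4a1 (0.87) and Itgb2 (0.83). Dner had Rnf19b (0.85), U2af2 (0.80) and Dlx2 (0.79), and Mfng, on its small counts, Gm9962 (0.80), 2610018G03Rik (0.76) and Crabp1 (0.75). The likeness is in the spread within groups and is given as a description.

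In the genome (NCBIM37, mm9) 3 of the 10 genes lie on chromosome 2, Notch1 (26313423-26372183, minus strand), Jag1 (136907192-136942380, minus) and Pofut1 (153067269-153095983, plus), and 2 on chromosome 17, Dll1 (15504318-15513836, minus) and Notch3 (32257765-32303825, minus). Dner spans 84366416-84692796 of chromosome 1 (minus). Notch2 lies at 97817461-97954290 of chromosome 3 (plus). The Fringes lie on separate chromosomes, Lfng at 141083295-141091497 of chromosome 5 (plus), Rfng at 120642060-120645521 of chromosome 11 (minus) and Mfng at 78586312-78603905 of chromosome 15 (minus). None of the 10 shared exon bases with another gene on its own strand, while Notch1, Notch3 (6.07%), Dll1 and Dner (2.12%) shared some with genes on the other strand.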

How the data were processed

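RNA-seq of 16 libraries was used. The authors made polyA-selected directional libraries, aligned reads with STAR (mm9) and ran HTSeq, without regard to strand, over Ensembl genes. The deposited counts are whole numbers with no normalization, 1 file per library. The authors also deposited RPKM values, used here only for gene names, gene lengths and a check of library names (after division by length, each column was proportional to the counts of 1 library, CV under 1e-06). Entries on no gene (10.2% to 13.2% of a file), ambiguous (2.20% to 2.75%) or not uniquely aligned (8.41% to 12.1%) stayed out of totals and tests. Replicates of a group differed by more than counting error (24 pairs, chi-square of 3.08 to 74.5 per degree of freedom).

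The test was that of edgeR 4.0.16 under R 4.3.3 (filterByExpr, TMM, a robust quasi-likelihood test, Benjamini-Hochberg adjustment over all genes tested). Intervals are 95% from the t distribution. DESeq2 1.42.0 was an alternative. Python 3.11.15 with pandas 2.3.3 and matplotlib 3.10.9 made summaries and plots. The steps were tested on simulated data. Libraries of 1 mouse share its number, so mouse was tried as a replicate block. Deviations from the group mean correlated from -0.10 to 0.12 across genes for the same mouse and from -0.17 to 0.15 for different mice. Eogt and Xxylt1 were found in the files under older names.

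The genes and lists were chosen with earlier results of these data known. Named were the 10 genes, all other canonical receptors, ligands and targets, up to 2 called genes per direction of each other list, the 3 most alike genes and Slc39a8. Cbln1 and Cux2, with 2 identifiers each, were taken by the identifier with more counts.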

Additional observations from a re-analysis of the deposited data

Results flagged for a closer look

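Of 40 groups of 4 libraries (10 genes in 4 groups), 3 held a library far from the others, with a gap to its nearest neighbour that took up more of the range of the group than Dixon's 95% limit, where chance gives about 2 (1 in 20). All 3 are of the mouse of CTX445 and CBLM445. Pofut1 was highest in CBLM445, at 27.3 TPM against 23.2, 23.4 and 23.6 in the other 3 A391T cerebellum libraries. Notch1 was lowest in CBLM445, at 2.81 TPM against 5.72, 5.70 and 6.12, and lowest in CTX445, at 5.88 TPM against 6.45, 6.39 and 6.35 in the other A391T cortex libraries. In CBLM445 genes over 8000 bases lay below their group mean and genes under 2000 bases above it (a gap of -0.25 on the log2 scale), while the gap of CTX445 was 0.02. Their part in these values was not tested.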

How the results depend on the processing

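The number of the 10 genes past an adjusted p of 0.05 between regions was 7 in wild-type and 5 in A391T mice. It was 4 and 3 with only the mice whose names matched in both sources (2 per genotype), where 47.4% and 40.1% of all genes passed, and 1 and 1 in the test against a 2-fold change, which is stricter by construction (18.2% and 17.8%). In A391T mice, leaving out 1 library gave from 3 (without CTX445, CTX461 or CTX462, where 57.2% to 57.8% of all genes passed) to 8 (without CBLM445, 72.7%). In wild-type mice it gave 6 or 7, with 63.0% to 69.2% of all genes. Over all genes the test against a 2-fold change called 2920 of the 10877 in wild-type and 2850 of the 10032 in A391T mice, and the matching mice gave 7715 and 6512. Between genotypes, edgeR called 2 genes in cortex and 0 in cerebellum where DESeq2 called 14 and 37, and in the interaction 0 where DESeq2 called 1. In cortex edgeR called 5 with no filter on low counts, 1 with matching mice and 0 with the names of the expression table, in cerebellum 1 with no filter and 2 in the model of all 16 libraries, and leaving out a library gave from 0 to 2 in cortex and 0 or 1 in cerebellum. Dner passed both criteria under every alternative run, and no alternative gave a call for any of the 10 between genotypes or in the interaction.

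Some values changed sign, and not only those near 0. In wild-type mice Dll1 (-0.01) was at 0.11 with library totals, 0.025 with matching mice and from -0.081 to 0.028 when 1 library was left out. Notch1 (-0.05) was at 0.081 with library totals, 0.0029 with the names of the expression table, 0.22 with matching mice, 0.015 with those names and mouse as a replicate block, and from -0.19 to 0.11 when 1 library was left out. In A391T mice Dll1 (-0.13) was at 0.0032 with library totals, 0.026 with the other names, 0.12 with matching mice and 0.022 with the other names and the block. Notch2 (-0.03) was at 0.11 with library totals, 0.093 with the other names, 0.083 with the other names and the block, and from -0.086 to 0.073 when 1 library was left out. Hey1 (-0.20) was at 0.0031 with matching mice, and Lfng between genotypes in cortex (-0.21) at 0.063 with the other names. The cause was not tested. With mouse as a replicate block Jag1 in wild-type mice (-0.29) and Rfng in A391T mice (0.26) lost their calls and Notch1 in A391T mice (-0.46) gained one, and the block changed no other call of the 10. Small counts limit Mfng, Dll1 and Jag1, and 4 mice per group and an unsettled naming of 8 libraries limit the genotype comparisons.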
